A study of Homo sapiens with 3 samples.

Results

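The cells described here are those with the highest mitotic score in each of 3 cultures: H460, an established human large-cell lung carcinoma line, and its derivatives mdR-H460 and ldR-H460. They were selected on 10 genes of mitosis: among cells with at least 5000 unique molecular identifiers (UMIs, 1 for each captured RNA molecule), the UMIs of CCNB1, CCNB2, CDC20, PLK1, UBE2C, CENPF, TOP2A, TPX2, HMMR and CDKN3 were summed per 10000 UMIs of the cell, and the 20% of cells with the highest sum were taken within each culture. This gave 770 of 3850 cells in H460, 776 of 3880 in mdR-H460 and 904 of 4521 in ldR-H460, 2450 of 12251 in all. They are called high-score cells, and the cells of the same culture that were not taken are called the other cells.

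Each culture was profiled as 1 library of single cells by 3′ tag sequencing. H460 is the parent line, and the labels name mdR-H460 and ldR-H460 its mid-term and long-term dR derivatives; no agent, dose or time was assigned to them. The growth protocol, which all 3 samples carry, speaks of reprogrammed cancer cells, irradiated human fibroblasts as a feeder layer and gelatin-coated plates, and the part held here does not say which of these a given culture saw. For the single-cell run all 3 were grown in flasks. With 1 library a culture, a difference between cultures has no replicate check, library and culture cannot be told apart, and no p-value is given.

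Mitosis is driven by CDK1 bound to B-type cyclins, which are made in G2. Aurora and Polo kinases then build the spindle and attach the chromosomes, and the spindle checkpoint holds back the anaphase-promoting complex until every kinetochore is attached. The complex, with its activator CDC20 and its ubiquitin-conjugating enzyme UBE2C, marks cyclin B and securin for destruction, and the cell leaves mitosis. Transcripts of these genes accumulate from late S phase on, so that a score made from RNA takes in cells in G2 together with those in mitosis, and the 2 cannot be told apart here.

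Promoters of G2 and mitotic genes often hold a CHR element, searched here as TTTGAA or its reverse complement TTCAAA, beside CCAAT boxes, searched as CCAAT or ATTGG. The promoters below are shown because they hold these letters, 3 from the score and 1, CDK1, from outside it. They are printed 5′ to 3′ on the strand of the gene, up to 200 bases before the RefSeq start and cut short before any annotated exon, with both motifs in capitals. The build is GRCh38.p14, and the windows are chr1:43358781-43358954 (plus strand), chr1:214602995-214603194 (plus), chr17:40417951-40418096 (minus) and chr10:60778131-60778330 (plus). The CHR letters of CENPF lie after its start and are not printed.
CDC20: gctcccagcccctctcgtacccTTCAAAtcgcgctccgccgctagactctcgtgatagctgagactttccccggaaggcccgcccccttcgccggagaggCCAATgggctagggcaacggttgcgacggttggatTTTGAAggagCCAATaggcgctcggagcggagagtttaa
CENPF: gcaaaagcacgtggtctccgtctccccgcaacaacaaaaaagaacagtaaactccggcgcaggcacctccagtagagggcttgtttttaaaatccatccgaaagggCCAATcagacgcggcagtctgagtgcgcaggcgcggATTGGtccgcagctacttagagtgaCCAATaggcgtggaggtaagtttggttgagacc
TOP2A: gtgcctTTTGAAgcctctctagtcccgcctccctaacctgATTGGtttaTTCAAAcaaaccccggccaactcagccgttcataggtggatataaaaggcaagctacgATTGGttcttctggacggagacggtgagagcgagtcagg
CDK1: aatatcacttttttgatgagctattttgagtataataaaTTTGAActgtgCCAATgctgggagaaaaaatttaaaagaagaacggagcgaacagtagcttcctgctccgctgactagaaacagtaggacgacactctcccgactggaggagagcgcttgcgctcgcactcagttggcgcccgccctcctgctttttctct

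In windows of 300 bases, 250 before the start to 50 after it, RefSeq promoters were matched for 8 of the 10 score genes. CHR letters were in 7 of these 8 (87.5%) and CCAAT letters in 8 of 8. Over all 27305 promoters of the table the shares were 15.4% and 35.7%, and 6.08% held both. CCNB1 had CCAAT letters and no CHR letters in its window. Both motifs were searched on both strands and each for itself, so that a CHR and a CCAAT match may share an end base, and a match is a description of the sequence only.

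The score that limited the selection was not the same in the 3 cultures. The last cell taken and the first left out scored 11.712 and 11.710 in H460, 19.673 and 19.657 in mdR-H460, and 18.152 and 18.150 in ldR-H460. The median score of high-score cells was 16.9 in H460, 25.8 in mdR-H460 and 22.9 in ldR-H460, the order in which all triplets of values are given below, and that of the other cells was 1.69, 4.21 and 8.64. The score was continuous, with 90, 73 and 114 high-score cells and 96, 52 and 124 other cells within 1 unit of the limit, so the group is a range of a score and not a cell type. Among the other cells of H460, 750 (24.4%) had no UMI of any score gene, against 585 (18.8%) in mdR-H460 and 159 (4.40%) in ldR-H460.

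**Figure D1:**
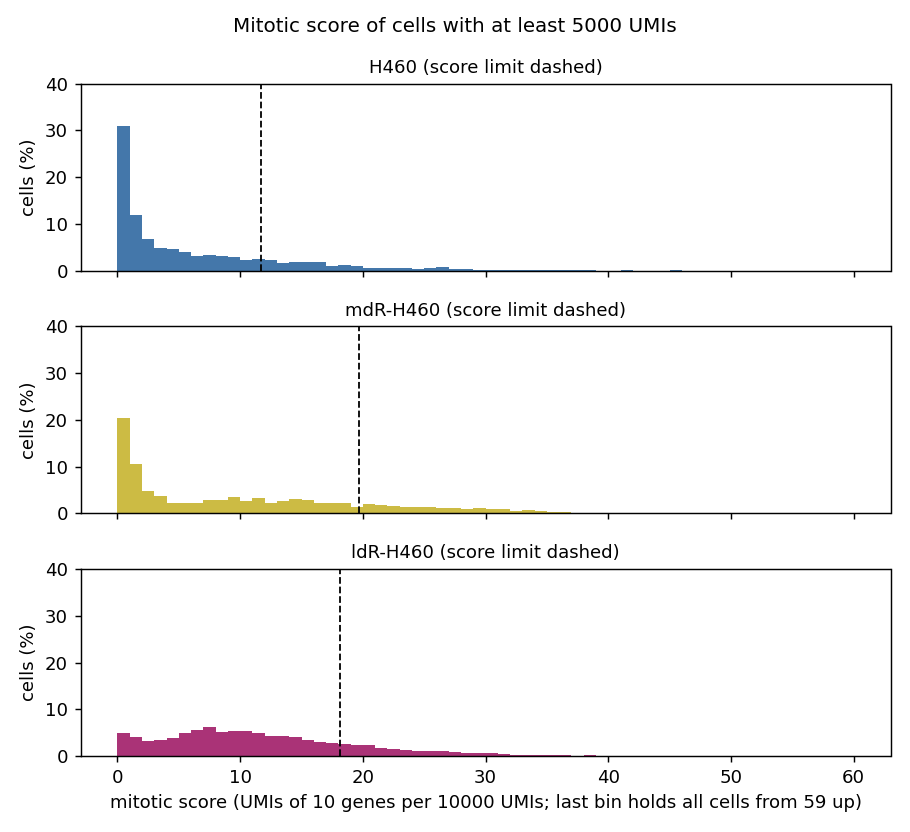
Share of cells (%) by mitotic score (UMIs of the 10 score genes per 10000 UMIs) in each culture, with the limit of the 20% selection dashed. The limits are at 11.7, 19.7 and 18.2, and the ldR-H460 distribution has the highest median among the other cells, 8.64.

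A single limit for all 3 cultures, the score that takes the top 20% with each culture weighted equally (16.712), was reached by 10.3% of H460 cells (95% interval 9.37 to 11.3), 25.7% of mdR-H460 cells (24.3 to 27.1) and 24.02% of ldR-H460 cells (22.8 to 25.3). The intervals, exact Clopper-Pearson ones, and all those below cover counting error only. At the lower limit of H460 itself, 39.4% of cells in mdR-H460 and 44.1% in ldR-H460 would have been taken. Without CDKN3 in the score the shares at a common limit were 13.01%, 25.9% and 21.1%, so that H460 was lowest either way. The high-score cells of H460 therefore reach further down the scale than those of the derivatives. Gene values at the common limit are given only for PLK1 and HIST1H4C. Other folds between cultures are at unlike limits unless another setting is named.

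High-score cells held more UMIs than the other cells. Their median UMI count was 19694, 21682 and 14404, against 15691, 14280 and 12525 in the other cells. They had 3677, 3566.5 and 2967 detected genes in the median cell. No cell of ldR-H460 had 4000 genes or more, and 32.7% of the H460 and 32.3% of the mdR-H460 high-score cells did. The fullest cell had 4987 genes in H460, 4993 in mdR-H460 and 3998 in ldR-H460. Whether the deposited cells were cut at unlike gene limits was not tested, so these depths cannot be read as traits of a culture. Cells of more than 30000 UMIs made up 9.22% and 19.5% of high-score cells in H460 and mdR-H460 and none in ldR-H460. No doublet caller was run, and the part of doublets in these cells was not tested. A total of 30, 36 and 24 cell barcodes were shared between libraries (H460 with mdR-H460, H460 with ldR-H460, and mdR-H460 with ldR-H460), 2 of them between high-score cells of mdR-H460 and ldR-H460.

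The 10 score genes, which chose the cells and are given as a description, summed to 1945, 2697 and 2438 UMIs per 1000000 UMIs (CPM) in high-score cells and to 346, 785 and 909 CPM in the other cells. Each CPM value is the gene's UMIs over all cells of a group divided by the UMIs of that group, with an exact 95% Poisson interval in parentheses. Most high-score cells expressed most of the genes: the median cell had a UMI of 8, 9 and 8 of the 10, against 2, 3 and 5 in the other cells. All 10 were seen in 169 (21.9%), 357 (46.0%) and 184 (20.4%) high-score cells.

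CCNB1 (chr5:69167010-69178245, GENCODE 29 on GRCh38, as for the positions below) encodes cyclin B1, the partner of CDK1. Its level in high-score cells was 121 CPM (115 to 127) in H460, 367 CPM (358 to 376) in mdR-H460 and 221 CPM (213 to 229.6) in ldR-H460, and in the other cells 19.3, 99.6 and 76.95 CPM. It was 3.03-fold (2.88 to 3.19) higher in mdR-H460 than in H460 high-score cells and 1.83-fold (1.73 to 1.94) higher in ldR-H460. These folds are at each culture's own limit, and CCNB1 fell with the score. Over 4 score bins of the H460 high-score cells, from the highest down, it was at 202, 130, 87.8 and 63.2 CPM. In the highest such bin it was at 510 CPM in mdR-H460 and 296 CPM in ldR-H460. These bins were not matched in score, with medians of 27.4 in H460, 33.3 in mdR-H460 and 31.2 in ldR-H460. The second bin of mdR-H460, with a median score of 27.9, was at 381 CPM. That of ldR-H460, with a median score of 25.01, was at 213 CPM. Both were still above the 202 CPM of H460, but the 3.03-fold and 1.83-fold values are not folds at a like score. The folds at the common limit are not given here. The lowest culture is H460 in both groups of cells. CCNB2, the second B-type cyclin, stood at 62.8, 124 and 108 CPM, in the same order.

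PLK1 (chr16:23677656-23690367), the Polo kinase of mitotic entry and spindle assembly, had the widest separation of the 10 in H460. It stood at 53.8 CPM (50.1 to 57.6) against 4.12 CPM in H460, 84.8 CPM (80.5 to 89.3) against 19.9 in mdR-H460 and 75.8 CPM (71.2 to 80.7) against 20.1 in ldR-H460. These are 13.1, 4.25 and 3.77 times the level of the other cells. The other cells of H460 held less PLK1 than those of either derivative. Between high-score cells PLK1 was 1.58 and 1.41 times as high in mdR-H460 and ldR-H460 as in H460, which at the common limit became 1.07 and 1.01.

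UBE2C and CDC20 act with the anaphase-promoting complex. UBE2C (chr20:45812576-45816957) was the most abundant of the 10, at 557, 878 and 609.9 CPM, and supplied 28.6%, 32.6% and 25.02% of the score's UMIs. CDC20 (chr1:43358955-43363203) was at 92.2, 167 and 128 CPM, against 20.3, 56.7 and 49.02 in the other cells. Both were highest in mdR-H460.

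Structural genes of the score were ordered otherwise. CENPF (chr1:214603195-214664588), a large kinetochore protein of G2 and mitosis, was at 416 CPM (406 to 426) in H460, 257 CPM (249.5 to 265) in mdR-H460 and 346 CPM (336 to 356) in ldR-H460. TOP2A, the topoisomerase that disentangles sister DNA, was at 184, 141 and 169 CPM. For these genes H460 was highest and mdR-H460 lowest, the reverse of CCNB1 and UBE2C. The spindle proteins TPX2 and HMMR each differed by no more than 1.20-fold between cultures, at 98.7, 93.4 and 112 and 87.6, 98.01 and 94.6 CPM.

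CDKN3 (chr14:54396849-54420218), a phosphatase that acts on cyclin-dependent kinases, was at 273, 486 and 574 CPM in high-score cells and 66.7, 211 and 349.9 CPM in the other cells. Its share of the score's UMIs was 14.0%, 18.0% and 23.5%, while that of CENPF was 21.4%, 9.53% and 14.2%. The shares of these genes thus differed between cultures, while UBE2C gave the largest share in each.

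**Figure D2:**
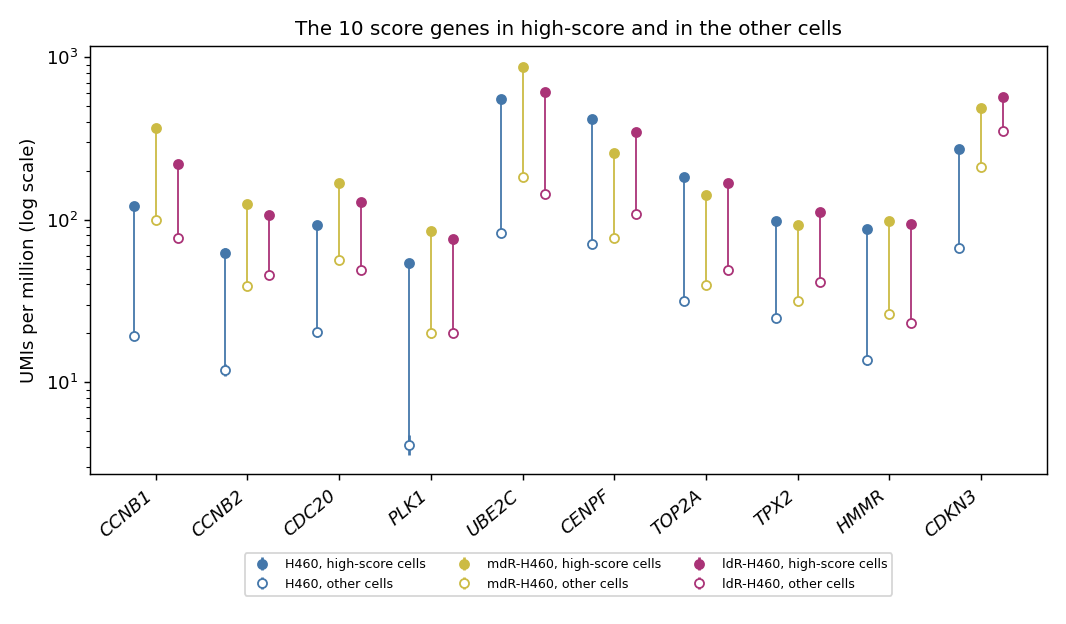
CPM (log scale) of the 10 score genes in high-score cells (filled) and the other cells (open) of each culture, with exact 95% Poisson intervals that cover counting error only. CCNB1 runs from 121 in H460 to 367 in mdR-H460, and CENPF from 416 in H460 to 257 in mdR-H460.

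The label was checked against 17 mitotic markers that the score does not use. All 17 were at least 2-fold higher in high-score than in other cells in H460 (2.79 to 7.75 times) and in mdR-H460 (2.03 to 4.35), and 13 of 17 in ldR-H460 (1.41 to 3.71). Summed, the markers were at 1963, 2205 and 2156 CPM in high-score cells and at 534, 915 and 1112 CPM in the other cells. So the level in high-score cells was alike to within 1.5-fold across cultures, and the other cells of the derivatives carried more of these transcripts than those of H460. The markers under 2-fold in ldR-H460 were KIF23, BIRC5, MKI67 and PTTG1. PTTG1, which encodes securin, was at 401, 646 and 647 CPM in high-score and 115, 318 and 459 CPM in other cells, so its ratio was 3.50, 2.03 and 1.41.

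Those markers of other cells that were listed were low. The 9 markers of feeder fibroblasts summed to 10.9, 2.22 and 4.40 CPM in high-score cells and 10.9, 3.22 and 4.71 CPM in the other cells. Of these, POSTN, FAP and THY1 were not listed for any culture and were set to 0, so they add no information. The 6 blood and endothelial markers summed to between 1.06 and 4.50 CPM, of which PTPRC, CD3E and VWF were likewise not listed and set to 0. The 5 carcinoma-line markers, mostly keratins, summed to 2423, 2274 and 1757 CPM in high-score cells and 3552, 2870 and 1869 CPM in the others. The order of these sums did not hold for each marker. With all cells thinned to the same number of UMIs, KRT19 was seen in 91.3%, 32.9% and 11.3% of high-score cells. KRT7 was seen in 22.5%, 48.6% and 36.7%, and KRT8 in 72.6%, 81.2% and 82.5%. KRT18 was seen in 95.2%, 99.4% and 98.1%, and EPCAM in only 0.26%, 0.13% and 0%.

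**Figure D3:**
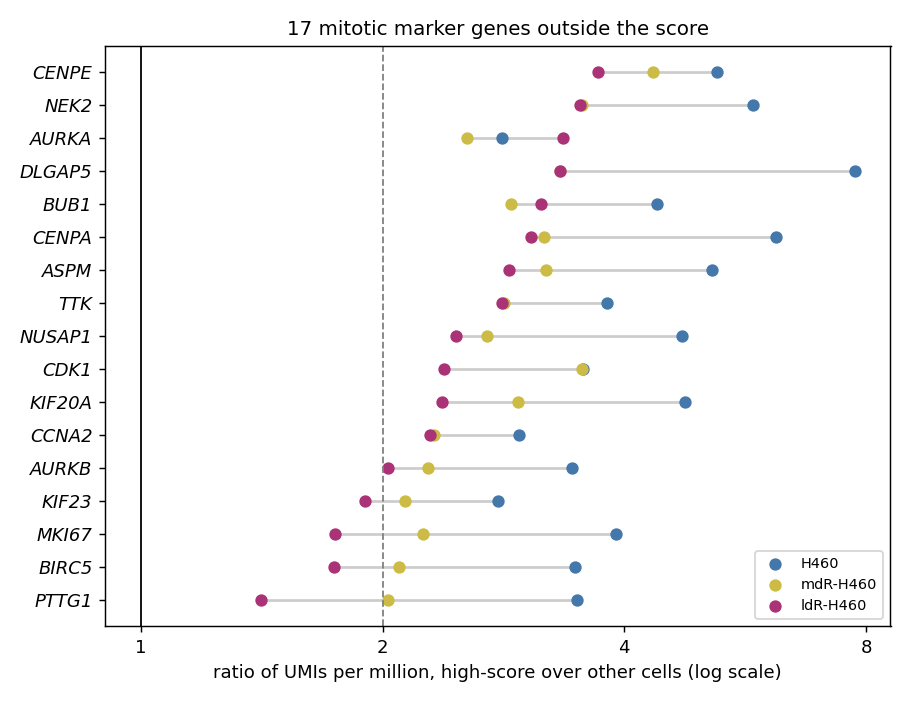
Ratio of CPM in high-score over other cells (log scale) for the 17 mitotic markers outside the score, 1 point a culture, with the dashed line at 2-fold. All H460 and mdR-H460 points lie above 2-fold, and 4 ldR-H460 points lie below it.

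After each cell was thinned to 5000 UMIs, to compare cells of unlike depth, an AURKA UMI was seen in 55.97, 54.6 and 53.2% of high-score cells and in 15.5, 13.8 and 9.18% of the 20% of cells with the lowest score. Without thinning, at median depths of 19694, 21682 and 14404 UMIs against 11360, 9712 and 10643, the shares were 88.6%, 92.7% and 85.3% against 28.6%, 24.4% and 18.5%. That group is the nearest to cells that should lack the gene, and it is not free of AURKA. AURKA (chr20:56369389-56392337), the Aurora kinase of centrosomes, was at 191, 171 and 176 CPM in high-score cells and 67.7, 67.3 and 52.6 in the other cells.

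Over all genes with at least 10 CPM in the higher of the groups compared, few differed 2-fold between high-score and other cells. In H460, 142 of 6453 genes were higher (2.2%) and 36 lower (0.558%). In mdR-H460, 71 of 5882 were higher (1.21%) and 68 lower (1.16%), and in ldR-H460, 66 of 6118 were higher (1.08%) and 7 lower (0.114%). The balance of higher and lower genes turned with the level: at 1 CPM, 223 were higher and 261 lower in H460, 98 and 451 in mdR-H460, and 108 and 145 in ldR-H460. The score genes are among the higher ones. Since the cells were cut by a score that tracks many genes, these counts describe the cut and are not a test.

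Outside the score, 132, 61 and 57 genes were at least 2-fold higher in high-score cells, and 45 were so in all 3 cultures, of 5436 genes at 10 CPM in each. These 45 are 34.1%, 73.8% and 78.9% of each culture's own list. None was 2-fold lower in all 3. CENPE (chr4:103105806-103198409), the kinesin that carries chromosomes to the spindle equator, had the largest ratio common to the 3: it was at 37.2 CPM (34.2 to 40.4) against 7.12 CPM in H460, 44.3 CPM (41.2 to 47.5) against 10.2 in mdR-H460 and 42.1 CPM (38.7 to 45.8) against 11.4 in ldR-H460. That is 5.23-fold (4.57 to 5.98), 4.35-fold (3.87 to 4.88) and 3.71-fold (3.29 to 4.19) higher.

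Other genes among the 45 act at the spindle, the kinetochore and in mitotic signalling. NEK2, a centrosomal kinase, was 5.78, 3.54 and 3.52 times as high as in the other cells. DLGAP5, which bundles kinetochore fibres, was 7.75, 3.33 and 3.33 times as high, and GTSE1, a microtubule-tip protein, 5.68, 3.10 and 2.80. CENPA, the histone H3 variant of centromeres, stood at 52.99, 81.1 and 109 CPM in high-score and 8.58, 25.5 and 35.7 in other cells. KPNA2, a nuclear import receptor, was 2.30, 3.07 and 2.57 times as high, and was largest in mdR-H460, at 470.1 CPM.

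Of the 45, 39 had a RefSeq promoter, and CHR letters were in 25 of these (64.1%), CCAAT letters in 31 (79.5%) and both in 23 (58.97%), as in the CDK1 promoter printed above. Among the 4314 promoters of the 5436 genes the shares were 9.50%, 37.7% and 4.24%. For a list of 45 S phase genes, 34 with a promoter, the shares were 5.88% with CHR and 70.6% with CCAAT letters. These shares are of letters within the window and were not tested.

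Genes of mitosis were then followed by role, in lists that hold both score genes and others, counting a gene as higher or lower at 1.5-fold if it reached 1 CPM in either group. Over all genes, 4.87% were higher and 7.89% lower in high-score cells of H460, 2.81% and 11% in mdR-H460, and 3.01% and 4.31% in ldR-H460, and the median gene lay between -0.02 and 0.02 on the log2 scale. The selection itself raises the score genes in these lists, so their counts and median ratios are a description. Counts without the score genes are not given. Nothing here is called particular to a list.

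Among CDK1, cyclins and the regulators of entry, 11, 10 and 10 of 19 genes were higher, with median ratios of 2.15, 1.67 and 1.56. CDK1 (chr10:60778331-60794852) itself was at 196, 253 and 163 CPM against 55.1, 71.5 and 68.5. The transcription factor FOXM1, which drives genes of G2 and mitosis, was 3.37, 1.68 and 1.58 times as high as in the other cells. The phosphatase CDC25C, which activates CDK1, was at low levels of 7.83, 9.47 and 10.9 CPM and 6.11, 2.69 and 3.28 times as high.

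Of 15 mitotic kinases and chromosomal passenger genes, 14, 13 and 13 were higher (median ratios 3.40, 2.19 and 2.10). The passenger kinase AURKB was at 123, 140.1 and 102 CPM and the survivin gene BIRC5 at 216, 249 and 263. Spindle motors and microtubule proteins were nearly all higher, 27, 26 and 25 of 28 (medians 3.13, 2.43 and 2.30). Cytokinesis genes were higher in 11, 10 and 10 of 16 cases (medians 2.61, 1.94 and 1.85).

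In these 3 lists the median ratio was highest in H460 and lowest in ldR-H460, and the same order held for genes of chromosomes. Centromere and kinetochore genes were higher in 22, 17 and 11 of 26 cases (medians 2.31, 1.62 and 1.33), and condensin, cohesin and chromosome proteins in 17, 12 and 7 of 22 (2.00, 1.51 and 1.29). SMC4, a condensin subunit, was 2.78, 2.06 and 1.73 times as high. MKI67, the chromosome surfactant used as a proliferation marker, was at 223, 134 and 140.4 CPM against 57.1, 59.6 and 80.5, or 3.90, 2.25 and 1.74 times.

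Checkpoint genes were higher in 7, 6 and 4 of 10 cases, BUB1 being 4.39, 2.89 and 3.15 times as high. The anaphase-promoting complex and its substrates gave 5, 5 and 3 of 20. Nuclear envelope and pore genes gave 5, 4 and 2 of 19, and tubulins 5, 3 and 2 of 12. TUBB4B was higher in each culture (1.52, 1.79 and 1.95 times). TUBA1A was lower in H460 high-score cells, at 164 CPM (158 to 171) against 333 CPM (328 to 338), and was 1.17 times as high as in the other cells of ldR-H460. Ribosomal protein genes, of which 26 were measured, gave none higher and none lower in any culture.

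High-score cells of H460 carried more S phase transcripts than those of ldR-H460. Of 45 S phase genes, 10, 2 and 0 were higher in high-score cells and 2, 2 and 6 lower, with median ratios of 1.11, 1.09 and 0.826. Their sum was 2138, 1832 and 1384 CPM in high-score cells against 1706, 1561 and 1573 CPM in the others. RRM2, a subunit of ribonucleotide reductase, was at 198, 146 and 100.4 CPM against 71.1, 91.5 and 87.4, and its ratio was 2.79, 1.60 and 1.15. CLSPN, of the replication checkpoint, had ratios of 1.47, 1.02 and 0.757. CCNE2, the cyclin of S phase entry, was lower in high-score cells of every culture, at 6.83, 1.29 and 0.607 CPM against 9.82, 4.02 and 2.93.

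Across 5 equal bins of cells by score, from highest to lowest, the S phase sum was 2138, 2581, 2223, 1034 and 597 CPM in H460, 1832, 2033, 2090, 1021 and 466 in mdR-H460 and 1384, 1607, 1779, 1773 and 1051 in ldR-H460. Its peak lay in the second bin of H460 and the third of both derivatives. In ldR-H460 the fourth bin was still near that peak, whereas in the other cultures it had dropped. The 17 mitotic markers summed to 122, 145 and 547 CPM in the lowest bin.

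**Figure D4:**
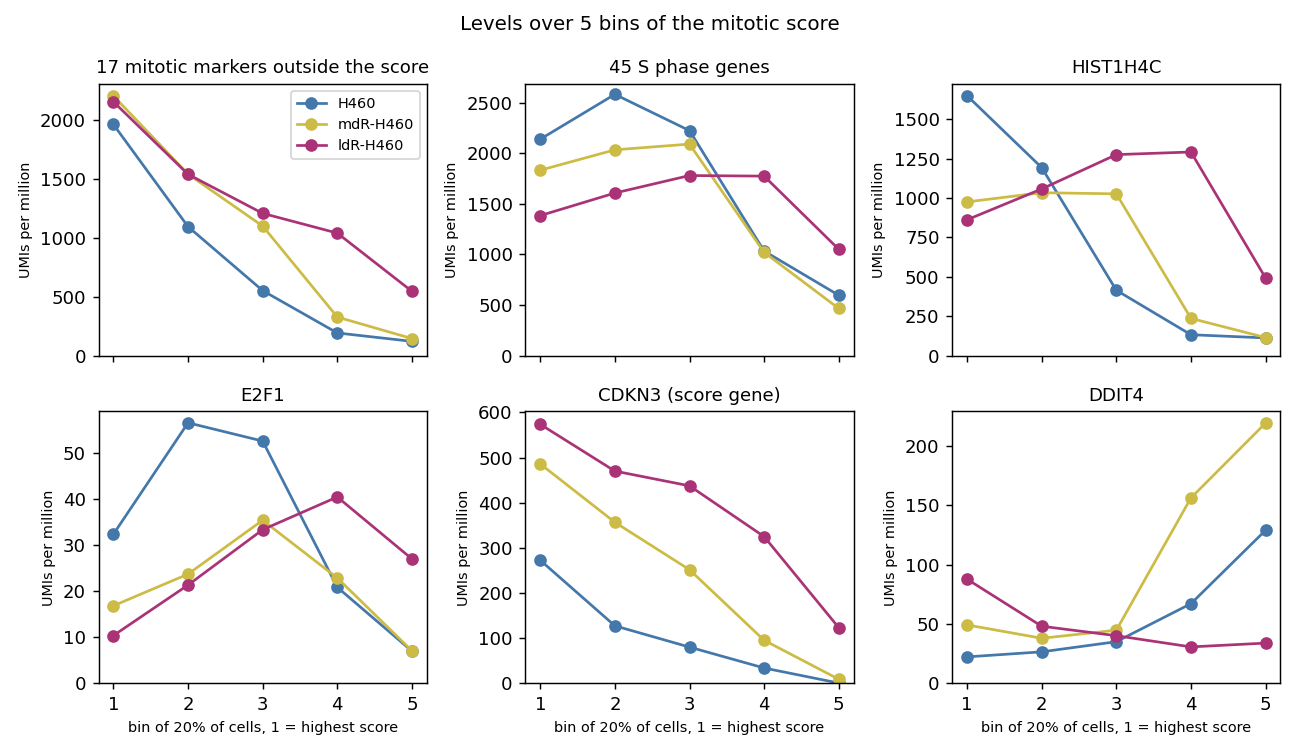
CPM over 5 equal bins of cells by mitotic score (1 is highest) for gene sums and single genes in the 3 cultures. The S phase sum of the lowest bin is 597 in H460, 466 in mdR-H460 and 1051 in ldR-H460, and DDIT4 is highest in the bin of highest score in ldR-H460 and in that of lowest score in the other cultures.

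E2F1 (chr20:33675683-33686404), a transcription factor of S phase entry, was lower in high-score cells of ldR-H460, at 10.3 CPM (8.66 to 12.2) against 30.5 CPM (28.97 to 32.2). The values were 16.8 against 23.9 CPM in mdR-H460 and 32.4 against 36.7 CPM in H460. The reduction was 2.96-fold (2.48 to 3.55), 1.42-fold (1.25 to 1.62) and 1.13-fold (1.03 to 1.26), in ldR-H460, mdR-H460 and H460. Within the high-score cells of H460, split into 4 bins by score, E2F1 was lowest in the bin of highest score: 19.7, 31.98, 33.6 and 44.5 CPM from the highest bin to the lowest.

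HIST1H4C and HIST1H1D transcripts were highest in H460 among high-score cells and highest in ldR-H460 among the other cells. Replication-dependent histone genes are switched on in S phase, and their mRNAs end in a stem-loop and mostly lack the poly(A) tail that 3′ capture uses. HIST1H4C (chr6:26103876-26104310), a histone H4 gene, stood at 1649 CPM (1628 to 1670) in high-score cells of H460, 976 CPM (961 to 990.4) in mdR-H460 and 862 CPM (846 to 878) in ldR-H460, and at 509, 704 and 1052 CPM in the other cells. Thus it was 3.24-fold (3.18 to 3.30) higher in high-score cells of H460, 1.39-fold (1.36 to 1.41) higher in mdR-H460 and 1.22-fold (1.20 to 1.25) lower in ldR-H460. The H460 value was 2.43-fold at the common limit and 1.95-fold in the top 5% of cells, and the ldR-H460 ratio stayed below 1 under every setting tried.

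In high-score cells the linker histone genes had the same order of cultures. HIST1H1D was at 58.3, 13.1 and 10.8 CPM in high-score and 16.3, 10.9 and 20.4 in other cells, and HIST1H1E at 32.96, 8.13 and 7.82 against 13.1, 7.18 and 10.8. In a list of HIST-cluster genes that was made after these values were seen, 12, 3 and 1 of 23, 21 and 24 measured genes were higher in high-score cells and 5, 4 and 5 lower. Many of these genes are near copies of one another, and the way reads were shared among them was not given in the sources used here. Within the high-score cells of H460, HIST1H4C was at 1428, 1773, 1753 and 1644 CPM from the highest to the lowest of 4 score bins, so the highest bin had the least. Over 5 bins of all cells it was at 1649, 1193, 415, 133 and 113 CPM in H460 and 862, 1058, 1275, 1292 and 493 in ldR-H460, so its peak lay in the first bin of H460 and the fourth of ldR-H460.

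**Figure D5:**
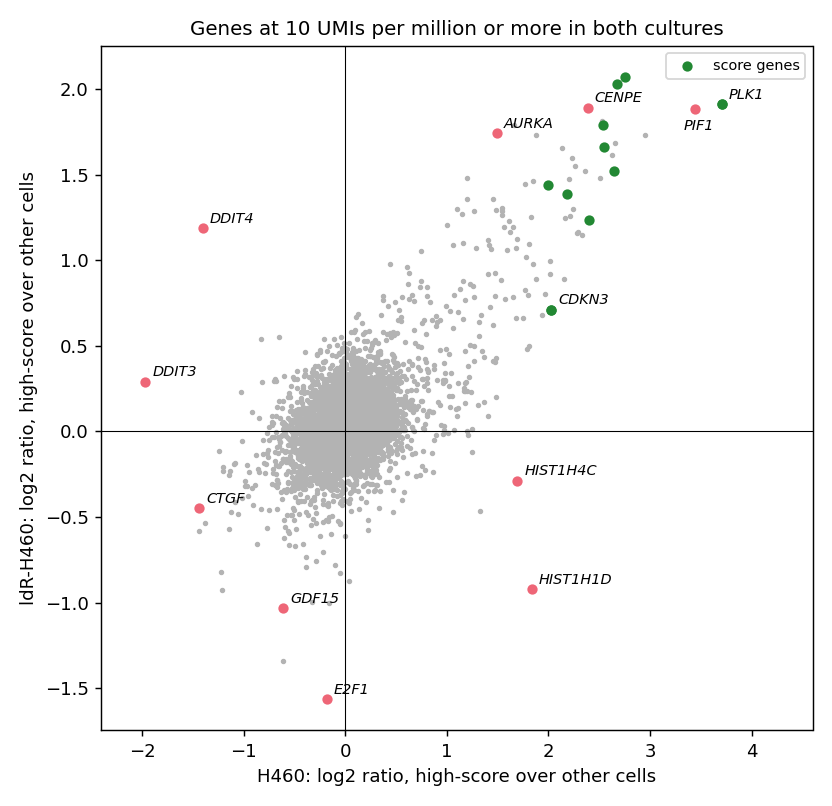
Log2 ratio of high-score over other cells in ldR-H460 (vertical) against H460 (horizontal) for 5763 genes at 10 CPM or more in both cultures. The score genes lie at the upper right, the labelled histone genes at positive H460 and negative ldR-H460 values, and DDIT4 at the upper left.

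Several stress and signalling lists had more lower than higher genes in high-score cells of H460 and mdR-H460. p53 targets were lower in 5, 6 and 4 of 20 cases and higher in none, immediate early genes lower in 7, 7 and 2 of 15, and unfolded protein and amino acid stress genes lower in 4, 6 and 1 of 19, 19 and 18. These numbers stand beside 7.89%, 11% and 4.31% over all genes. YAP target genes were lower in 2, 8 and 1 of 10, 10 and 9 and inflammatory genes in 4, 7 and 2 of 17, 18 and 18. NRF2 targets were neither 1.5-fold higher nor lower in any culture (20 measured).

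GDF15, a stress cytokine under p53, was at 50.00, 60.3 and 23.9 CPM in high-score and 76.4, 206 and 48.9 in other cells. CTGF, a secreted YAP target, was at 66.8, 29.1 and 87.2 against 181, 55.4 and 119. ANKRD1, also a YAP target, was 6.17-fold (4.50 to 8.67) lower in mdR-H460 and 2.07-fold (1.91 to 2.24) lower in ldR-H460. IL1B, an inflammatory cytokine, was at 1.58 CPM against 11.2 in mdR-H460, 7.08-fold (4.81 to 10.8) lower. HSPA6, a heat shock gene, was 25.1-fold (15.6 to 43.2) lower in H460, where 14 of the 3080 other cells held 95.1% of its UMIs. Without the cells high in DDIT3 and HSPA6, an alternative chosen after seeing the data, its ratio in H460 was 0.846. The vault protein gene MVP was 3.31, 3.17 and 3.18 times lower, though its levels in high-score cells were only 3.51, 1.17 and 0.683 CPM.

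DDIT4 (chr10:72273920-72276036), an inhibitor of the mTORC1 growth pathway, was the single gene of 5436 that was at least 2-fold higher in high-score cells of one culture and 2-fold lower in those of another. It was at 22.3 CPM (20.03 to 24.9) against 59.1 CPM (56.97 to 61.3) in H460. In mdR-H460 it was at 49.2 CPM (45.97 to 52.7) against 96.7 CPM (93.9 to 99.5). In ldR-H460 the order turned, with 87.8 CPM (82.9 to 93.1) against 38.6 CPM (36.8 to 40.4). High-score cells thus differed from the others by 2.64-fold (2.36 to 2.97) lower, 1.96-fold (1.82 to 2.12) lower and 2.28-fold (2.11 to 2.45) higher.

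Over the 5 score bins, from highest to lowest, DDIT4 was at 22.3, 26.6, 35.1, 67.1 and 129 CPM in H460, 49.2, 38.03, 44.8, 156 and 219 in mdR-H460 and 87.7, 48.1, 40.2, 30.8 and 33.95 in ldR-H460. A few cells held much of the DDIT4 in H460 and mdR-H460. Cells with at least 5 DDIT4 UMIs per 10000 numbered 35 of 3080 other cells in H460 and 90 of 3104 in mdR-H460, where they held 38.2% and 61.8% of the DDIT4 UMIs of those cells. In ldR-H460 such cells were 21 of 904 high-score cells (2.32%, 1.44 to 3.53) and 5 of 3617 other cells (0.138%, 0.0449 to 0.322), and in high-score cells they held 14.6% of the UMIs. Without thinning, a DDIT4 UMI was seen in 28.8% of the high-score and 38.0% of the other cells of H460, at median depths of 19694 and 15691 UMIs. In mdR-H460 the shares were 46.5% and 37.5%, at 21682 and 14280 UMIs. There the shares ran against the ratio of CPM, and the part of depth in this was not tested. In ldR-H460 a DDIT4 UMI was seen in 53.1% of the high-score cells and in 33.5% of the other cells, at median depths of 14404 and 12525 UMIs. When cells high in DDIT3 and HSPA6, both stress genes, were left out before the selection, the DDIT4 ratio was 0.56, 1.02 and 2.28. This left out 1 cell of ldR-H460, so it says little about the ratio there.

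DDIT3 (chr12:57516588-57521737), the CHOP transcription factor of the unfolded protein response, was at 12.5, 24.2 and 12.00 CPM in high-score cells and 49.2, 91.3 and 9.81 in the other cells. In the other cells of H460 and mdR-H460, 73.6% and 80.8% of its UMIs were in 34 and 80 cells. Without the cells high in DDIT3 and HSPA6 its ratio was 0.953 in H460 and 0.879 in mdR-H460.

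Between cultures, the high-score cells were compared directly. Against H460, mdR-H460 had 94 genes at least 2-fold higher (1.47% of 6391) and 524 lower (8.2%), and ldR-H460 had 243 higher (3.69% of 6585) and 496 lower (7.53%). Between the derivatives, ldR-H460 had 212 higher (3.41% of 6210) and 148 lower (2.38%). Of the genes called, 84.8% were lower in mdR-H460 than in H460, which became 66.5% and 65.4% when the sums were scaled by edgeR's TMM and DESeq2's size factors. The 41.1% that were lower in ldR-H460 than in mdR-H460 became 55.7% and 61.4%. Each 2 of these comparisons share the cells of 1 culture. In the other cells, mdR-H460 had 124 genes higher (1.94%) and 441 lower (6.90%) than H460, and ldR-H460 239 (3.64%) and 568 (8.66%). Against mdR-H460, the other cells of ldR-H460 had 155 higher (2.51%) and 205 lower (3.32%), a balance opposite to that of high-score cells.

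Of the mitotic lists given here for the comparisons of high-score cells, that of kinases and passenger genes was closest to level. The other mitotic lists followed above are not given for these comparisons. Of 15 kinases and passenger genes, 0, 0 and 0 were 1.5-fold higher and 1, 0 and 0 lower (mdR-H460 and ldR-H460, each against H460, and then ldR-H460 against mdR-H460). Their sums were 941, 944 and 895 CPM, and the sign of their median log2 ratio turned with the setting in the comparison of mdR-H460 with H460 (-0.39 to 0.09) and in that of the derivatives (-0.11 to 0.14). Spindle motors had 2, 1 and 1 higher and 7, 4 and 1 lower of 28, and kinetochore genes 2, 2 and 0 higher and 3, 6 and 3 lower of 26. Over all genes at 1 CPM, 7.67% were higher and 27.4% lower in mdR-H460 than in H460, 13.3% and 21.2% in ldR-H460 than in H460, and 20.3% and 9.79% in ldR-H460 than in mdR-H460.

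S phase genes were lower in the derivatives' high-score cells, 19, 27 and 13 of 45 in the same order, with 1, 1 and 1 higher and medians of 0.810, 0.606 and 0.866. Under every setting tried the median log2 ratio stayed negative, from -0.48 to -0.09, -0.81 to -0.55 and -0.45 to -0.16. PCNA, the replication clamp, was at 134, 141 and 63.3 CPM, and CLSPN at 128, 75.4 and 41.8. Between the other cells, 11 of 45 S phase genes were 1.5-fold lower in mdR-H460 and 8 of 45 in ldR-H460, against H460, beside 22.1% and 23% of all genes at 1 CPM.

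CDK5RAP2, a centrosome protein that nucleates microtubules and was singled out after its values were seen, was at 123, 1118 and 797 CPM in high-score cells. The other cells had 106, 1074 and 817 CPM, so that the difference was one between cultures and not between score groups. ANLN, the scaffold of the cytokinetic ring, was at 52.6, 25.4 and 28.2 CPM in high-score cells, 2.07-fold (1.84 to 2.33) and 1.87-fold (1.65 to 2.12) lower in the derivatives than in H460. PIF1 (chr15:64815632-64825668), a DNA helicase, was 1.54 and 1.55 times as high as in H460, but 0.745 and 0.835 times in the top 5% of cells, so its direction depends on how deep the selection goes.

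Several genes were at or near 0 in the high-score cells of 1 culture and not in those of another. CDH11, a mesenchymal cadherin, had 129 CPM in high-score cells of H460, no UMI in mdR-H460 and 10.4 CPM in ldR-H460, which is at least 736-fold lower in mdR-H460 by a floor of 3 UMIs. The other cells had 177, 0.148 and 12.5 CPM. DSP, the desmoplakin of cell junctions, had 1 UMI in high-score cells of H460 and was 174-fold (30.8 to 6896) higher in mdR-H460. PKIB, an inhibitor of protein kinase A, was at 0.199, 28.9 and 23.6 CPM, with 3 UMIs in H460, and was 119-fold (40.2 to 579) higher in ldR-H460.

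S100A8 and S100A9, the calprotectin genes, were at or near 0 in high-score cells of ldR-H460. S100A9 was at 432, 488 and 1.44 CPM, and S100A8 at 142 and 59.2 CPM with no UMI in ldR-H460, at least 624-fold lower than in H460. A few cells held much of the S100A8, with 34 of 770 high-score cells holding 95.7% of its UMIs in H460 and 17 of 776 holding 56.6% in mdR-H460. HPD, an enzyme of tyrosine breakdown, went the other way, at 0.332, 20.1 and 29.3 CPM. FGA, the fibrinogen alpha chain, was highest in mdR-H460, at 0.862, 40.9 and 6.68 CPM. OLFML3, a secreted matrix protein, had 0, 3 and 249 UMIs in high-score cells, 108-fold (36.4 to 526) higher in ldR-H460 than in mdR-H460. The other cells had 5887, 4313 and 16 UMIs of S100A8, so it was low in ldR-H460 there too. For DSP, PKIB, S100A9, HPD, FGA and OLFML3 the other cells are not given here. No difference in these genes is called particular to high-score cells.

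How far the cultures differed in high-score cells beyond the other cells was measured as a ratio of the 2 ratios, over genes with at least 20 UMIs in each of 4 sums. It passed 1.5-fold either way for 336 of 6608 genes between mdR-H460 and H460 (5.08%), 421 of 6736 between ldR-H460 and H460 (6.25%) and 234 of 6415 between ldR-H460 and mdR-H460 (3.65%). For the rest of these genes the culture difference was of the same size in both groups of cells to within 1.5-fold. Between ldR-H460 and H460 the highest ratios were those of DDIT4 (6.02), DDIT3 (4.797) and RGS16, a regulator of G proteins (2.59). The lowest, given as their inverse, were HIST1H1D (6.76), HIST1H4C (3.95), PLK1 (3.46) and HIST1H1E (3.46). PLK1 is a score gene, so the selection bears on its value, which is given as a description.

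Between ldR-H460 and mdR-H460, 216 of the 234 genes were relatively higher in ldR-H460 high-score cells and 18 lower. DDIT3 (4.61), DDIT4 (4.47), TXNIP, which binds thioredoxin (3.61), and ANKRD1 (2.98) were among the highest. Lowest were HIST1H1D, with an inverse of 2.28, and E2F1, with 2.08. Between mdR-H460 and H460, 73 genes were relatively higher and 263 lower, IL1B lowest, with an inverse of 5.27. Without the cells high in DDIT3 and HSPA6 the DDIT3 values were 1.30 against H460 and 1.41 against mdR-H460, and DDIT4 against H460 was 4.06. DDIT4 against mdR-H460 was then also below 4.47, since its ratio in mdR-H460 rose as given above. Between ldR-H460 and mdR-H460, 149 genes were then relatively higher and 21 lower. Among cells of at least 10000 UMIs these counts were 100 and 22.

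Within the high-score cells, in 4 bins from the highest score to the lowest, the 17 markers outside the score summed to 2717, 1944, 1691 and 1488 CPM in H460, 2641, 2191, 2077 and 1910 in mdR-H460 and 2725, 2172, 1914 and 1849 in ldR-H460. AURKA was at 292, 169.5, 164 and 135 CPM in H460, 199.7, 175, 154 and 156 in mdR-H460 and 232, 182, 155 and 139 in ldR-H460. S phase genes ran the other way in H460, at 1902, 2098, 2169 and 2388 CPM. DDIT4 was highest in the top bin of both derivatives. It was at 85.5, 38.96, 32.7 and 40.6 CPM in mdR-H460, 122, 82.9, 78.6 and 70.1 in ldR-H460, and 23.1, 21.1, 23.5 and 21.7 in H460. In mdR-H460, cells with at least 5 DDIT4 UMIs per 10000 were 4 of 776 high-score cells and held 23.3% of their DDIT4 UMIs. DDIT3 was at 50.6, 17.1, 15.9 and 13.6 CPM over the same bins of mdR-H460. The part of a few cells in the top bin was not tested. By the 17 markers, the high-score cells were graded within themselves in each culture.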

How the data were processed

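Single cells of 3 cultures were profiled with Chromium 3′ version 2 chemistry on a HiSeq 2500, with 5000 cells targeted, per the labels' protocols. The deposited tables hold raw UMI counts per gene symbol for cells kept by the authors' quality filter, per the series design text. The submitters' processing notes name Cell Ranger 3.0.2, Seurat 3.0 and the build GRCh38, with no role for any of them. A gene annotation was not given in the sources used here.

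Cells in the tables numbered 4531, 5151 and 4956, with 66192074, 66624830 and 60468481 UMIs in H460, mdR-H460 and ldR-H460. Of these, 681, 1271 and 435 cells had under 5000 UMIs and entered no comparison. UMIs were summed over high-score and over other cells with Python 3.11.15, NumPy 2.4.6 and SciPy 1.17.1. Sums have exact Poisson and ratios exact binomial-based 95% intervals. A symbol not listed in a table was set to 0, and 3 UMIs stood for 0 in a fold. Scaling by edgeR 4.0.16 (TMM) and DESeq2 1.42.0 served as alternatives. The calculation of ratios and their intervals was tested on simulated Poisson counts, and the other steps were not.

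The members and the 35 gene lists were chosen with earlier results of these data known. Named genes were the 10 score genes, the 8 highest and 6 lowest ratios of high-score over other cells in each culture, the 6 highest and 6 lowest ratios and ratios of ratios for each pair of cultures, and up to 4 genes of each list with the largest ratio. Of these, the text gives those with a known role. Positions are from GENCODE 29.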

Additional observations from a re-analysis of the deposited data

Results flagged for a closer look

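DDIT4 was flagged because its ratio of high-score over other cells pointed in opposite directions between cultures. The ratio was 0.378 in H460, 0.509 in mdR-H460 and 2.28 in ldR-H460. Without the cells high in DDIT3 and HSPA6, an alternative chosen after seeing the data, it was 0.56 in H460 and 1.02 in mdR-H460, which then no longer pointed the other way from ldR-H460. The difference between cultures was not tested, since each is 1 library.

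Cells under 5000 UMIs, which entered no comparison, also held cells with a high mitotic score. At or above the limit of their own culture were 130 of 681 such cells in H460 (19.1%), 232 of 1271 in mdR-H460 (18.3%) and 106 of 435 in ldR-H460 (24.4%). In a cell of few UMIs, 1 UMI moves the score further than in a deep cell, and the part of this in the shares was not tested.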

How the results depend on the processing

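No paired analysis was possible because each culture is 1 library and the result comes from no test. In all, 12 main results were recomputed under the alternatives, giving 107 values that stayed within 1.5 times the main count, or within the interval of a share, and 46 that did not. Ratios of a chosen set of genes, not of all genes, were also recomputed, and none of them past 2-fold turned its direction. DDIT4 in mdR-H460, just short of 2-fold lower, did turn without the cells high in DDIT3 and HSPA6. Comparisons are named here by culture, with H460 the reference unless mdR-H460 is named.

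Counts of genes past the fold followed the level filter. At 1 CPM instead of 10 they were 1937, 2105 and 1386 in high-score cells (mdR-H460, ldR-H460, and ldR-H460 against mdR-H460), 484, 549 and 253 against the other cells (H460, mdR-H460, ldR-H460), and 918, 1017 and 832 for the ratio of ratios. At 50 CPM they were 163, 223 and 92, then 73, 53 and 33, then 81, 120 and 38.

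With totals that leave out mitochondrial and ribosomal UMIs, high-score cells of ldR-H460 differed from mdR-H460 in 550 genes, those of mdR-H460 from its other cells in 212, and the ratio of ratios gave 536, 636 and 425. Thinning gave 290 for mdR-H460 against its other cells and 635, 764 and 679 for the ratio of ratios. Equal weight per cell gave 244 and, for ldR-H460 against mdR-H460 in the ratio of ratios, 494. Cells of at least 10000 UMIs gave 79 and 122 for the same pair of results. Cells under 4000 genes gave ratio-of-ratios counts of 653 (ldR-H460) and 379 (ldR-H460 against mdR-H460). The top 5% of cells, an alternative added after seeing the data, gave 543 for ldR-H460 against mdR-H460, 112 for ldR-H460 against its other cells, and 523, 706 and 513. The cause of these moves was not tested, beyond the filter itself.

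Shares at a common limit were 13.01% in H460 without CDKN3. They were 28.4%, 23.0% and 23.96% in mdR-H460 for cells of at least 10000 UMIs, under 4000 genes and not over 30000 UMIs, and 22.2%, 27.4% and 25.5% in ldR-H460, where the score without CDKN3 gave 21.1%.

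The share of lower genes among those past the fold moved with the level filter and the scaling. Against the other cells it went from 20.2%, 48.9% and 9.59% (H460, mdR-H460, ldR-H460) to 53.9%, 82.1% and 57.3% at 1 CPM, and to 9.59%, 28.3% and 3.03% at 50 CPM. For ldR-H460 against mdR-H460 in high-score cells it went from 41.1% to 30.4% at 1 CPM and 66.3% at 50 CPM. In the ratio of ratios for ldR-H460 it went from 54.2% to 43.95% and 72.5%. For ldR-H460 against mdR-H460 it was 28.7% without mitochondrial and ribosomal UMIs. In the ratio of ratios it was 78.3% for mdR-H460, and 63.3% and 66.4% with TMM and DESeq2 factors, and 7.69% for ldR-H460 against mdR-H460, and 19.9% and 32.4%. For mdR-H460 against its other cells it was 48.9%, and 62.7% without mitochondrial and ribosomal UMIs. The median log2 ratio over all genes went from -0.10 to 0.12 and 0.14 for high-score cells of mdR-H460 against H460, and from 0.03 to -0.09 and -0.13 for ldR-H460 against mdR-H460.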

Other observations

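Antigen presentation, differentiation inhibitors and oxidative stress genes also differed between the high-score cells of H460 and those of the derivatives. Of 14 MHC class I presentation genes, 8 were 1.5-fold lower in mdR-H460 and 9 in ldR-H460 than in H460, and none was higher, beside 27.4% and 21.2% lower over all genes. HLA-B was at 74.8, 16.5 and 11.6 CPM in high-score cells and 106, 25.9 and 12.5 in the other cells. ID1 and ID3, inhibitors of helix-loop-helix transcription factors, were higher in both derivatives, at 93.1, 373 and 330.4 and 183, 486 and 488 CPM. ID4 was high in ldR-H460 alone of these 3 libraries, with 0.862, 2.34 and 28.6 CPM. The other cells had 31, 117 and 1116 UMIs of ID4, in the same order.

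Of 20 NRF2 targets, 6 were 1.5-fold higher in mdR-H460 and 9 in ldR-H460, beside 7.67% and 13.3% over all genes. In ldR-H460 against mdR-H460, 2 of the MHC class I genes were higher and 2 lower, and 1 of the NRF2 targets was higher and 2 lower. Over all genes 20.3% were higher and 9.79% lower in that comparison. AKR1C1, an aldo-keto reductase, was at 133, 294 and 259 CPM in high-score cells. Of 10 YAP targets, 9 were 1.5-fold higher in ldR-H460 than in mdR-H460, beside 20.3% over all genes. CTGF was at 66.8, 29.1 and 87.2 CPM and ANKRD1 at 1.39, 2.40 and 52.9. The inflammatory genes summed to 4693, 2466 and 1183 CPM. Of these, 12 of 18 were lower in ldR-H460 than in H460, beside 21.2% over all genes. CXCL8, a neutrophil chemokine, was at 739, 327 and 191 CPM. None of these lists was tested, and nothing is called particular to them.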
